A study of Mus musculus with 6 samples.

Results

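Hox genes encode homeodomain transcription factors that give cells of the trunk and limbs their position along the body axis. In the mouse they lie in 4 clusters, in which the genes follow each other on 1 strand and are numbered by paralog group from the 3′ end (group 1, expressed towards the head) to the 5′ end (group 13, expressed towards the tail and the tips of the limbs). Where they are silent they are kept closed by Polycomb complexes, and sites of the insulator protein CTCF mark borders between closed and open stretches of a cluster. Cultured fibroblasts are known to keep a Hox code of the body part from which they were taken.

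The genes described here are 38 listed Hox genes out of 21938 protein-coding genes of the annotation (GENCODE vM21, build GRCm38). Of these, 10 lie in HoxA (Hoxa2 to Hoxa13, chromosome 6), 10 in HoxB (Hoxb1 to Hoxb13, chromosome 11), 9 in HoxC (Hoxc4 to Hoxc13, chromosome 15) and 9 in HoxD (Hoxd1 to Hoxd13, chromosome 2). They were chosen by name and not by a measured value, and all 38 were found in the annotation. Open chromatin was measured by ATAC-seq, in which the transposase Tn5 cuts accessible DNA, and binding of the transcription factor Tfcp2l1 by ChIP-seq with an antibody against it. The cells were mouse embryonic fibroblasts (MEFs) of the strain C57BL/6J, and the ATAC-seq labels give E13.5 embryos as their source. By the methods of the study MEFs are prepared from embryos without the head and the red organs, so that a library can mix cells of many body positions. The 4 ATAC-seq libraries were immortalized MEFs in 3% oxygen (Hyp-Imm), senescent MEFs in 20% oxygen (Norm-Sen), MEFs at passage 1 in 3% oxygen (Hyp-Pro) and MEFs at passage 1 in 20% oxygen (Norm-Pro). The 2 ChIP-seq libraries were immortalized MEFs in 3% oxygen (ChIP Hyp-Imm) and senescent MEFs in 20% oxygen (ChIP Norm-Sen). With 1 library for each condition in each assay, the values have no replicate error, and conditions are set side by side without a test.

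Libraries are called here by their sample labels, with which the file names disagree for all 4 ATAC-seq libraries. The Hyp-Imm library carries the file name of Norm-Sen, the Norm-Sen library that of Hyp-Pro, the Hyp-Pro library that of Norm-Pro and the Norm-Pro library that of Hyp-Imm. Peak names inside the lists end in 25 for both Hyp libraries and in 1h for both Norm libraries, and what these endings stand for is not stated, so that they cannot be told apart from oxygen. The lists held 37770 (Hyp-Imm), 61408 (Norm-Sen), 47523 (Hyp-Pro) and 69122 (Norm-Pro) peaks. The spacing of the fold values gave a background of 0.445 reads per position in Hyp-Imm and of 0.956 to 1.77 in the other 3 libraries, so that Hyp-Imm had both the fewest peaks and the lowest depth. As a check of the cell type, 4, 8, 7 and 8 of 13 fibroblast markers had a peak within 1 kb of a transcription start site (TSS) in Hyp-Imm, Norm-Sen, Hyp-Pro and Norm-Pro, where 34.0%, 51.4%, 48.0% and 53.2% of all protein-coding genes had one. Col1a2, Twist1, Fn1 and Vim had one in all 4 and Col3a1, Prrx1 and Lum in none. Of 5 short lists of markers of other cell types, the endothelial one had up to 2 of 4 genes with one, with Kdr in all 4 libraries, and the epithelial one up to 2 of 5. The marker counts lie near the share of all genes, so that they do not establish the cell type. A peak at a TSS is not a measure of expression, and no RNA was analysed here.

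One region each of HoxA, HoxC and HoxD is shown here, because these are the regions within 1 kb of a TSS that were found in the most libraries (of equals, the one with the highest peak). Each is given from 5′ to 3′ on the strand of its cluster, read from GRCm38, and at Hoxc13 as 300 bases around the highest summit. Capitals mark the bases that lie under a peak in every library that has the region, which are 33 of 214 bases at Hoxa4 and 30 of 201 at Hoxd1, while at Hoxc13 no base lies under the peaks of all 3 libraries.
Hoxa4 region, chr6:52191327-52191540, minus strand: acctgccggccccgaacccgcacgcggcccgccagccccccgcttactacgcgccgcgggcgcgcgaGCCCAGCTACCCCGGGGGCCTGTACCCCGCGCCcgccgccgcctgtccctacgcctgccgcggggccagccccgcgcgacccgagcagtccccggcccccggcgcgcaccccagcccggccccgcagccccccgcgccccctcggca
Hoxc13 region, chr15:102921937-102922236, plus strand: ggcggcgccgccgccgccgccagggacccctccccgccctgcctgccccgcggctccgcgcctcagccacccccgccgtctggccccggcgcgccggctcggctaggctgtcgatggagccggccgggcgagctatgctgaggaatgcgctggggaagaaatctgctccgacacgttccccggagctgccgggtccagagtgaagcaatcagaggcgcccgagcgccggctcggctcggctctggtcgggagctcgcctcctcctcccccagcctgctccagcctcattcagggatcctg
Hoxd1 region, chr2:74763229-74763429, plus strand: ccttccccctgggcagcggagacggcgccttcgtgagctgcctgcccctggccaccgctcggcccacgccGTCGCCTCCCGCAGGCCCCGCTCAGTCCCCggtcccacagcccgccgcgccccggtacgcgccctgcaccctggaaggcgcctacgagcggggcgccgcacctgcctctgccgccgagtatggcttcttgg
All 3 overlap a coding exon of the gene they are named for. They held 84.6% (Hoxa4), 74.3% (Hoxc13) and 76.6% (Hoxd1) G and C. The Hoxa4 region had peaks in Norm-Sen, Hyp-Pro and Norm-Pro, as had those of Hoxc13 and Hoxd1. None of the 3 had a peak in Hyp-Imm, the library with the fewest peaks and the lowest depth. In HoxD, regions at Hoxd13 and Hoxd9 were also found in 3 libraries, with Hyp-Imm among them. They were passed over because the peak at Hoxd1 was higher, so that in HoxD this absence depends on the choice.

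Most open regions over the clusters were found in 1 of the 4 libraries. The clusters, taken from the first to the last base of the listed genes, cover 484988 bp, over which Hyp-Imm had 14 peaks, Norm-Sen 35, Hyp-Pro 30 and Norm-Pro 28. Peaks that overlapped or touched were merged, which gave 78 regions, whose median width was 132 bp. Of these, 60 (76.9%, 95% exact Clopper-Pearson interval 66.0 to 85.7) were found in 1 library, 10 in 2 and 8 in 3. None was found in all 4, for which the interval reaches 4.62%. Over the genome, 85.6% of 170532 regions were found in 1 library and 3.09% in all 4. Intervals cover counting error only.

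**Figure D1:**
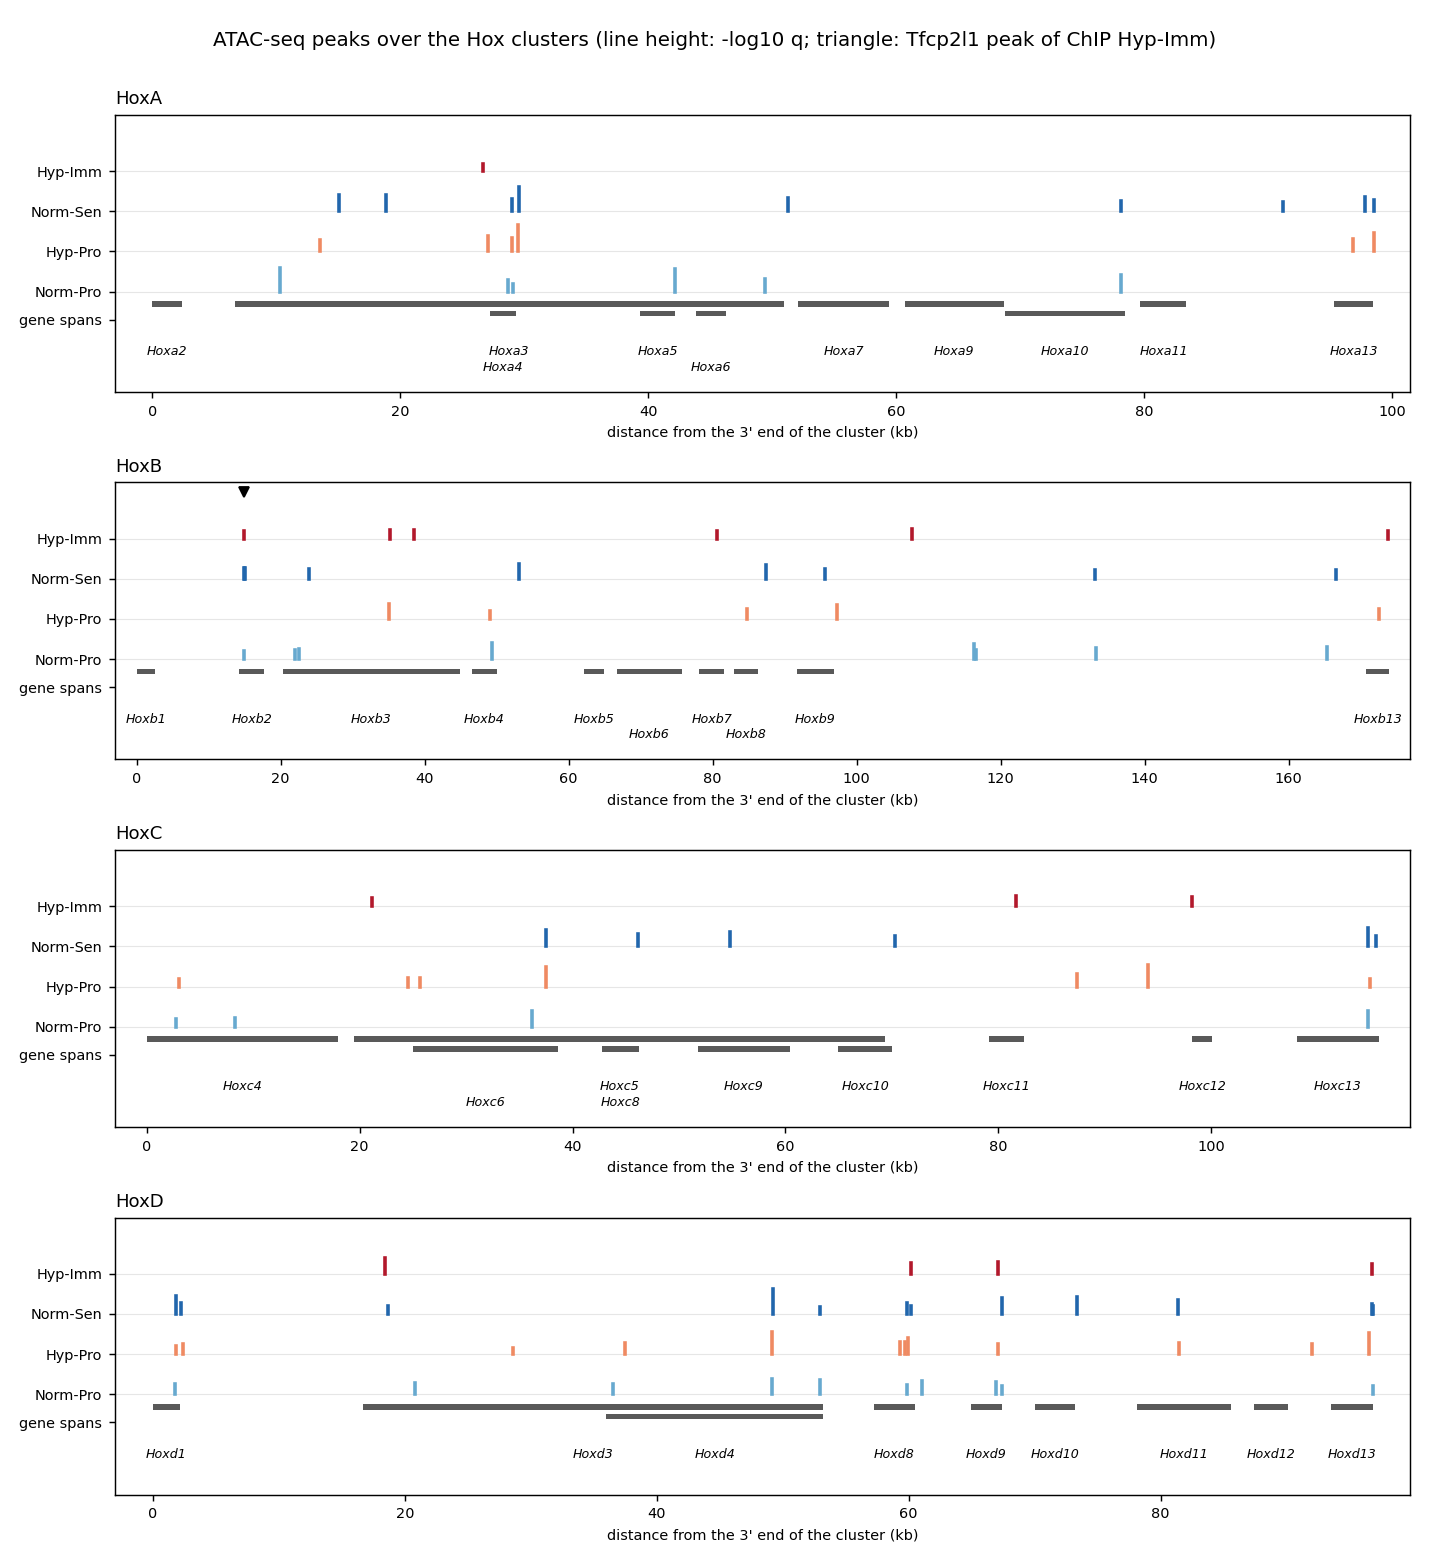
Peaks of the 4 ATAC-seq libraries (coloured lines, whose height grows with the −log10 q, up to 8.20) along each Hox cluster, by distance in kb from its 3′ end (x axis), with the spans of the listed genes as grey bars and their names below. The 14 peaks of Hyp-Imm are the fewest, HoxD has 5 of the 8 regions found in 3 libraries, and the triangle marks the single Tfcp2l1 peak, at Hoxb2.

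The number of peaks for a given length differed between clusters. HoxD had 4.13, 12.4, 12.4 and 10.3 peaks per 100 kb in Hyp-Imm, Norm-Sen, Hyp-Pro and Norm-Pro. HoxA had 1.02, 9.14, 6.09 and 6.09, and HoxC had 2.59, 5.18, 6.05 and 3.46. HoxB, the longest of the 4 with 173941 bp, had 3.45, 4.60, 2.87 and 4.60. With all peaks counted, HoxD thus had the highest density in each of the 4 libraries. Of peaks with a −log10 q (from the q-value of the peak caller) of at least 5, HoxD had 1, 3, 3 and 0. HoxA had 0, 3, 2 and 3 of these in the same order, HoxC 0, 2, 2 and 0, and HoxB none in any library. Over the autosomes and the X chromosome the same lists had 1.47, 2.39, 1.85 and 2.70 peaks per 100 kb, so that 15 of the 16 values of a cluster and a library lay above that of the genome, the exception being HoxA in Hyp-Imm. The clusters differ from the genome in other ways that were not matched. They have more G and C (48.9% in HoxB, the lowest of the 4, against 41.8%) and fewer repeats (13.4 to 24.6%, against 34.3%). They also hold 38 listed genes on 484988 bp. Of their 78 regions, 39 lay within 1 kb of a member's TSS, with 17 of 22 in HoxD. The part of these differences in the density was not tested.

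In each library the median strength of the cluster peaks was close to that of all peaks and below that of peaks at gene starts. Peak strength is given as the −log10 of the q-value of the peak caller, which ranks peaks within a library. It also depends on depth, so that a highest value among libraries describes the lists and is no difference between conditions. The median −log10 q of the cluster peaks was 2.88 in Hyp-Imm and 3.55 in Norm-Sen, against 3.65 in Hyp-Pro and 3.49 in Norm-Pro. The medians of all peaks on the autosomes and the X chromosome were 2.91, 3.72, 3.84 and 3.41 in the same order, and those of peaks within 1 kb of any protein-coding TSS were 3.78, 4.76, 4.73 and 4.96. Peaks at a Hox TSS had medians of 3.03, 3.50, 3.51 and 3.70. The median at a Hox TSS was thus also below that at protein-coding TSSs in all 4 libraries. The strongest cluster peak had a −log10 q of 5.05 in Hyp-Imm (Hoxd3, coding exon), 7.83 in Norm-Sen (Hoxd3, intron), 8.20 in Hyp-Pro (Hoxa4, TSS) and 7.25 in Norm-Pro (Hoxa3, coding exon). In their own libraries, 10.7%, 7.70%, 7.41% and 8.95% of all peaks were stronger.

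**Figure D2:**
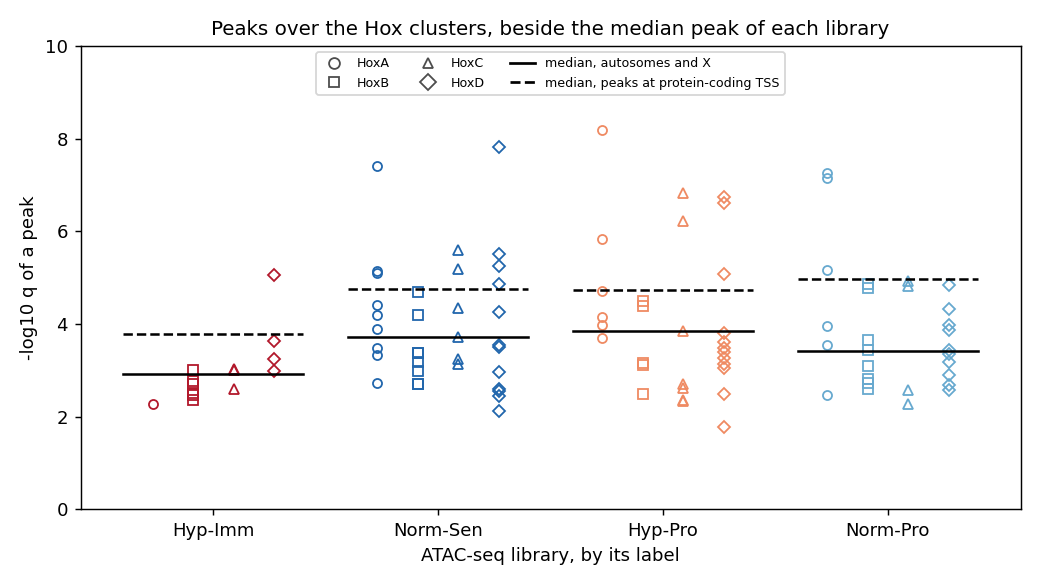
The −log10 q of each peak over the 4 Hox clusters (y axis, symbols by cluster), by ATAC-seq library (x axis), with the median of all peaks on the autosomes and the X chromosome (solid line) and of peaks within 1 kb of a protein-coding TSS (dashed line). Cluster peaks spread around the solid line of each library, and the highest of all, 8.20, lies at Hoxa4 in Hyp-Pro.

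At the TSS, a smaller share of Hox genes than of all protein-coding genes had a peak. Within 1 kb of a TSS, 7 of 38 members had a peak in Hyp-Imm (18.4%, 95% exact interval 7.74 to 34.3), against 34.0% of all protein-coding genes in that library. In Norm-Sen 14 had one (36.8%, 21.8 to 54.0), against 51.4%. In Hyp-Pro 13 had one (34.2%, 19.6 to 51.4), against 48.0%, and in Norm-Pro 11 (28.9%, 15.4 to 45.9), against 53.2%. The share of members lay below that of all genes in each library, but the interval left out the share of all genes in Norm-Pro alone. The members are not independent, since neighbours share peaks, so that the intervals are too narrow. With the 37770 strongest peaks of each library, 7, 10, 9 and 9 members had one in Hyp-Imm, Norm-Sen, Hyp-Pro and Norm-Pro (18.4%, 26.3%, 23.7% and 23.7%), against 34.0%, 44.4%, 44.2% and 46.9% of all protein-coding genes.

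Within the gene or 5 kb of it, where one peak can count for several neighbours, the difference from all genes had no single sign. The share of members lay above that of all genes in Norm-Sen and below it in Hyp-Imm, Hyp-Pro and Norm-Pro. A peak was found for 19 members in Hyp-Imm (interval 33.4 to 66.6%), against 56.3% of all protein-coding genes. It was found for 29 in Norm-Sen (76.3%, 59.8 to 88.6), against 71.5%. The counts were 25 in Hyp-Pro (65.8%, 48.6 to 80.4), against 67.3%, and 23 in Norm-Pro (60.5%, 43.4 to 76.0), against 73.4%. Each of these 4 intervals covers the share of all genes. Long spans add to the counts, since the annotation gives Hoxc5 a span of 49987 bp, which takes in Hoxc6, Hoxc8 and Hoxc9, and Hoxa3 one of 44275 bp, which takes in Hoxa4, Hoxa5 and Hoxa6.

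**Figure D3:**
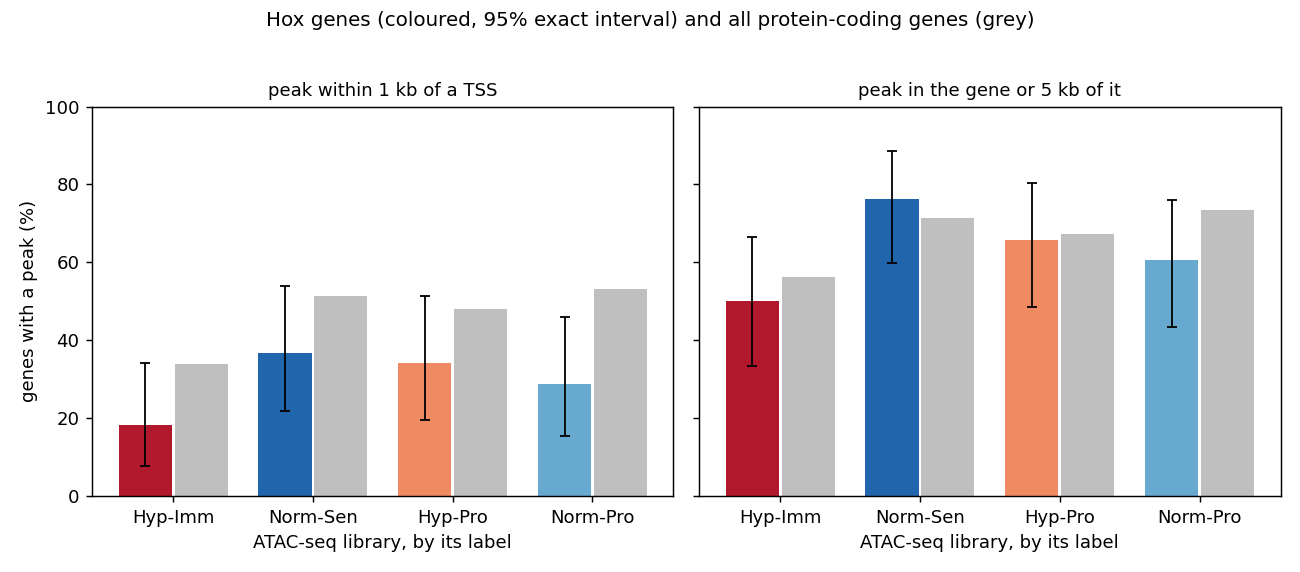
Percent of the 38 Hox genes (coloured bars, with 95% exact intervals) and of all 21938 protein-coding genes (grey bars) with a peak within 1 kb of a TSS (left) or in the gene or 5 kb of it (right), in each ATAC-seq library (x axis). At the TSS the Hox bar is the lower one in all 4 libraries, from 18.4% against 34.0% in Hyp-Imm to 28.9% against 53.2% in Norm-Pro.

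The Hox genes with a TSS peak in every library lay in HoxD. A TSS peak was found in all 4 libraries for 4 of 38 members (10.5%), against 25.7% of all protein-coding genes, namely for Hoxd3, Hoxd8, Hoxd9 and Hoxd13. A further 3 had one in 3 libraries (Hoxa4, Hoxc13 and Hoxd1), 4 in 2 (Hoxa10, Hoxa13, Hoxb4 and Hoxc4) and 12 in 1. No TSS peak was found in any library for 15 members (39.5%), against 34.2% of all genes. These were Hoxa2, Hoxa6, Hoxa7, Hoxa9 and Hoxa11, Hoxb1, Hoxb2, Hoxb5 and Hoxb6, Hoxc5, Hoxc6, Hoxc9 and Hoxc12, and Hoxd11 and Hoxd12. With the gene and 5 kb around it, 11 of 38 (28.9%) had a peak in all 4 libraries, against 43.8% of all genes. Hoxa9 and Hoxb5 had none in any library.

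**Figure D4:**
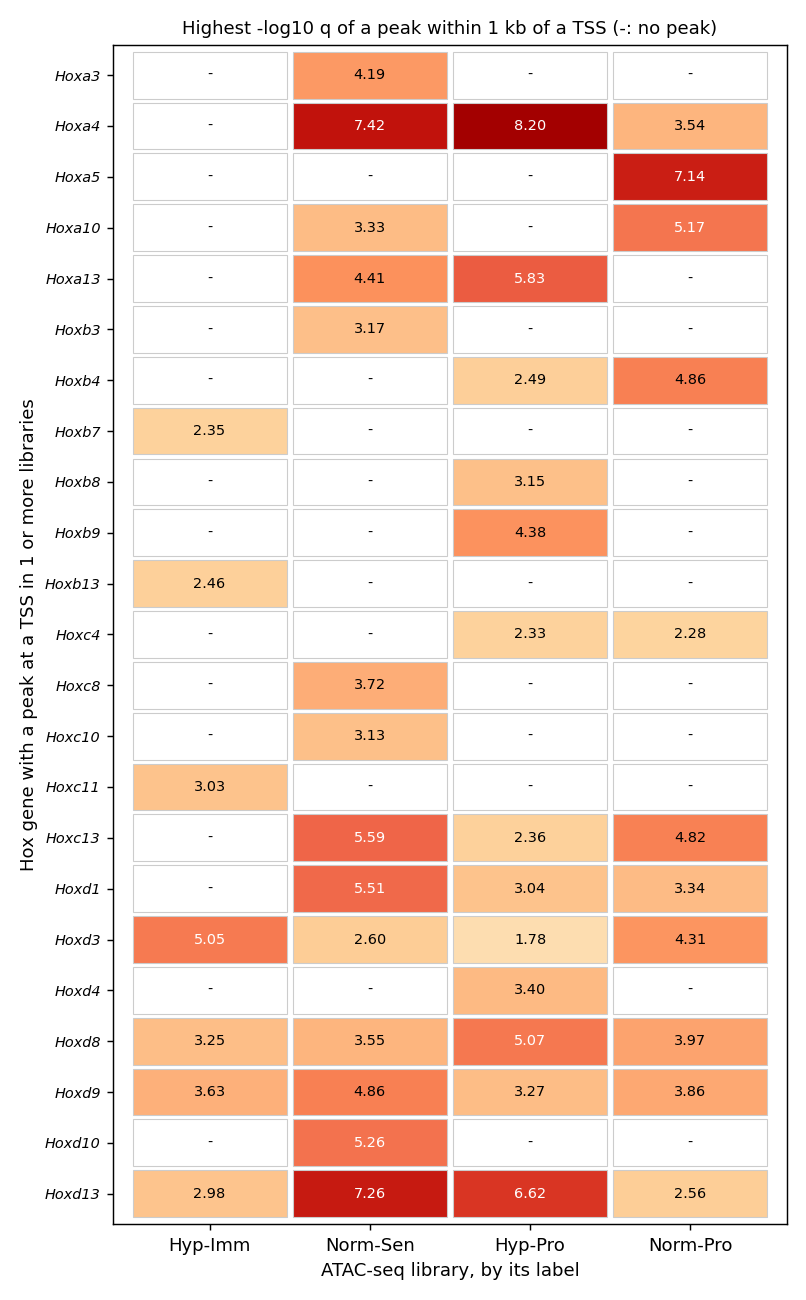
The highest −log10 q of a peak within 1 kb of a TSS, for each Hox gene that has one in 1 or more of the 4 ATAC-seq libraries (columns, by label), with darker cells for higher values and a dash for no peak. Hoxd3, Hoxd8, Hoxd9 and Hoxd13 have a value in all 4 columns, and the column of Hyp-Imm has 7 values, the fewest.

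HoxD was the cluster in which the libraries overlapped most. Hoxd13, which shapes digits and the genital bud, had 1, 4, 2 and 1 peaks within 1 kb of its TSS in Hyp-Imm, Norm-Sen, Hyp-Pro and Norm-Pro, the strongest with −log10 q of 2.98, 7.26, 6.62 and 2.56. One region across its TSS, at 74668214 to 74668459, was found in every library except Hyp-Pro, whose peak in the coding exon began at 74668498. Hoxd9, a limb and trunk patterning gene, had −log10 q of 3.63, 4.86, 3.27 and 3.86 in the same order, from 2 neighbouring regions of its exons. Hoxd8 had 3.25, 3.55, 5.07 and 3.97, from 3 neighbouring regions. When peaks up to 100 bp apart were merged, the regions at Hoxd13 and at Hoxd8 became the only 2 of 74 cluster regions present in all 4 libraries.

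The peaks counted for Hoxd3 lay at different start sites. This gene of the upper cervical vertebrae has 5 annotated TSSs over 36516 bp, and its strongest TSS peaks had −log10 q of 5.05, 2.60, 1.78 and 4.31 in Hyp-Imm, Norm-Sen, Hyp-Pro and Norm-Pro. The Hyp-Imm peak and that of Norm-Sen lay next to each other in a coding exon but did not overlap, the Hyp-Pro peak lay at an inner TSS, and the Norm-Pro peak lay at the first TSS, where Norm-Sen had another (2.12). Its presence in all 4 libraries is therefore not that of 1 shared region. Hoxd1, which in the mouse takes part in the wiring of pain neurons, had no TSS peak in Hyp-Imm and −log10 q of 5.51, 3.04 and 3.34 in Norm-Sen, Hyp-Pro and Norm-Pro, from the coding exon shown above and from sites just upstream.

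The remaining HoxD genes had few peaks at a TSS. Hoxd10, a gene of the lumbar spine and hind limb, had a TSS peak in Norm-Sen (−log10 q 5.26), and Hoxd4 had one in Hyp-Pro (3.40). Hoxd11, which with Hoxa11 shapes the forearm, had no TSS peak, but a region in its intron was found in Norm-Sen (4.26) and Hyp-Pro (3.48). Hoxd12 had no TSS peak, and in the 5 kb around it 1 peak in Hyp-Pro. The region of HoxD with the highest −log10 q in any library lay in an intron shared by the spans of Hoxd3 and Hoxd4, at 74715770 to 74716100. It had −log10 q of 7.83 in Norm-Sen (fold enrichment 5.46), 6.73 in Hyp-Pro (5.84) and 4.85 in Norm-Pro (5.09), and no peak in Hyp-Imm.

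In HoxA, Norm-Sen and Hyp-Pro had TSS peaks at both Hoxa4 and Hoxa13, and Hyp-Imm had a single peak in the whole cluster. That peak lay in the span of Hoxa3, 2612 bp from the TSS of Hoxa4, with a −log10 q of 2.26. Hoxa4, a gene of the neck region, had 2 TSS peaks in each of Norm-Sen, Hyp-Pro and Norm-Pro, with −log10 q of up to 7.42, 8.20 and 3.54. The stronger ones of Norm-Sen and Hyp-Pro overlapped in a region just upstream of the gene, at 52191846 to 52192053, where Norm-Pro had none. Hoxa13, a gene of digits and the urogenital tract, had TSS peaks in Norm-Sen (4.41) and Hyp-Pro (5.83) and none in Hyp-Imm and Norm-Pro.

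Other HoxA genes had TSS peaks in 1 or 2 libraries. Hoxa10, which is needed in the lumbar spine and the uterus, had one in Norm-Sen (3.33) and Norm-Pro (5.17), in its first exon. Hoxa5, a gene of lung and thoracic skeleton, had one in Norm-Pro alone (7.14), and Hoxa3, which is needed for the thymus and parathyroid, one in Norm-Sen alone (4.19). A strong Norm-Pro peak (7.25) in a coding exon of Hoxa3 had no counterpart in the other libraries. The longest stretch of HoxA without a peak in any library spanned 26694 bp and held Hoxa7 and Hoxa9, a gene of blood progenitors, with a part of Hoxa10.

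In HoxC, 3 genes had a TSS peak in 1 library each. Hoxc4 at the 3′ end had one in 2 libraries and Hoxc13 at the 5′ end in 3. Hoxc13, which is needed for hair and nails, had none in Hyp-Imm and −log10 q of 5.59, 2.36 and 4.82 in Norm-Sen, Hyp-Pro and Norm-Pro. Hoxc4 had one in Hyp-Pro (2.33) and one in Norm-Pro (2.28), which did not overlap. Hoxc11, a hind limb gene, had a TSS peak in Hyp-Imm alone (3.03), while Hoxc8, a gene of the thoracic skeleton and brachial motor neurons, and Hoxc10, a gene of lumbar motor neurons, had one in Norm-Sen alone (3.72 and 3.13). Away from a TSS, an intron shared by the spans of Hoxc5 and Hoxc6 had a region in Norm-Sen (5.19) and Hyp-Pro (6.23), and the strongest HoxC peak, between Hoxc11 and Hoxc12, was in Hyp-Pro (6.83).

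In HoxB, the libraries had the fewest peaks at TSSs in common. Of its 10 genes, 2, 1, 3 and 1 had a TSS peak in Hyp-Imm, Norm-Sen, Hyp-Pro and Norm-Pro. Hoxb4, known for its part in blood stem cells, had one in Hyp-Pro (2.49) and one in Norm-Pro (4.86, the highest value of the cluster), both in coding exon and not overlapping. Hoxb7 (2.35) and Hoxb13 (2.46), which in the mouse limits tail length, had one in Hyp-Imm alone. Hoxb8, a gene of myeloid cells and microglia, and Hoxb9 had one in Hyp-Pro alone (3.15 and 4.38), and Hoxb3 one in Norm-Sen alone (3.17). Hoxb1, Hoxb2, Hoxb5 and Hoxb6 had none, among them the hindbrain genes Hoxb1 and Hoxb2. Stretches of 32056 bp between Hoxb13 and Hoxb9 and of 27362 bp from within Hoxb7 across Hoxb6 and Hoxb5 held no peak in any library.

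Along the clusters, the relation of position to the number of libraries with a peak differed with the window used. Over the members of a cluster, Spearman's rho between paralog group and the number of libraries with a peak in the gene or 5 kb of it was −0.40 in HoxA (n = 10), 0.03 in HoxB (n = 10), −0.16 in HoxC (n = 9) and −0.13 in HoxD (n = 9). With the TSS in place of the gene it was 0.05, 0.42, 0.20 and −0.28. The sign changed between these windows in HoxA and HoxC. With the gene span alone it was negative in all 4 clusters, with −0.16 in HoxA, −0.07 in HoxB, −0.44 in HoxC and −0.26 in HoxD. These are descriptions with no p, since neighbours share peaks and all members share the 4 libraries. The span of the gene had a rho of −0.21, 0.34, 0.53 and 0.10 with the number of libraries in HoxA, HoxB, HoxC and HoxD. By groups, the 7 anterior members (groups 1 to 3) had a TSS peak in a mean of 1.29 libraries, the 15 central ones (4 to 8) in 1.07 and the 16 posterior ones (9 to 13) in 1.25. In the gene or 5 kb of it the means were 3.14, 2.47 and 2.31 libraries, the highest for the anterior members, which include the long spans of Hoxa3, Hoxb3 and Hoxd3.

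**Figure D5:**
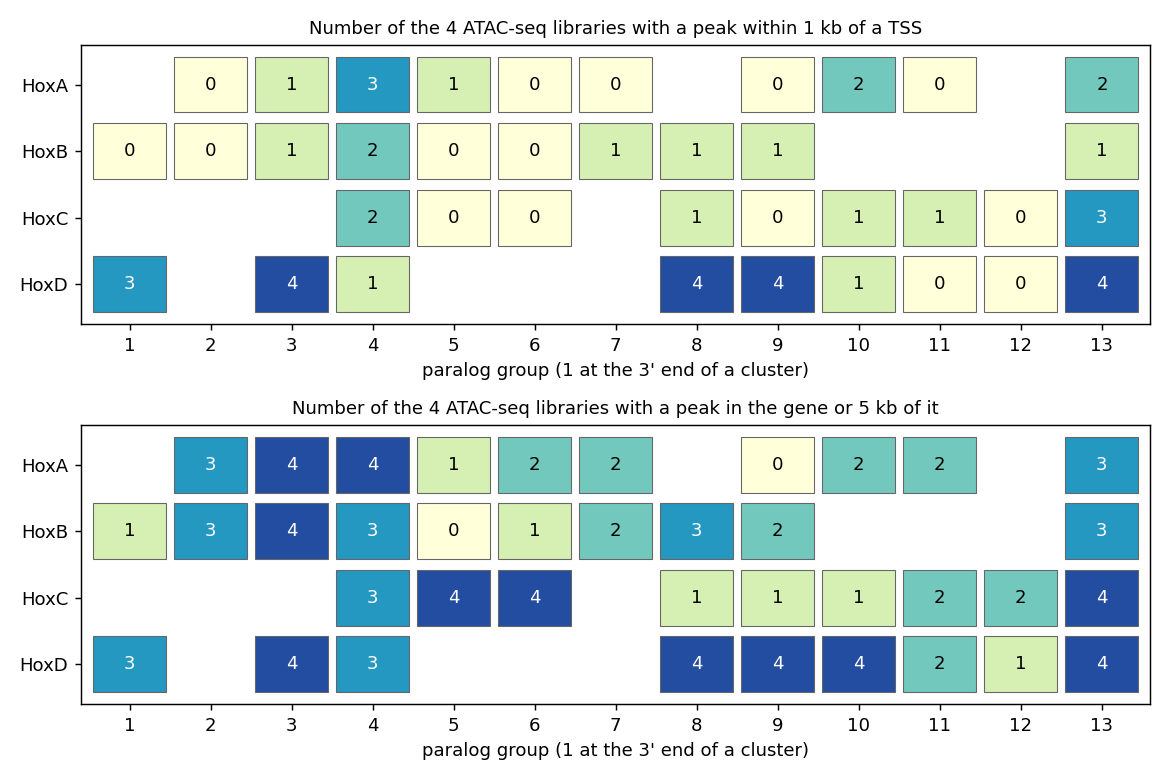
Number of the 4 ATAC-seq libraries with a peak within 1 kb of a TSS (upper panel) and in the gene or 5 kb of it (lower panel) for each listed Hox gene, by cluster (rows) and paralog group (columns), with blank places where no gene is listed. At the TSS the 4 genes with a value of 4 all lie in the row of HoxD, in groups 3, 8, 9 and 13, and no column is high in every row.

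Immortalized and senescent MEFs are the conditions that the study set against each other, and over the clusters their libraries shared few regions. Of 44 cluster regions with a peak in either, 11 were found in Hyp-Imm alone of the pair, 30 in Norm-Sen alone and 3 in both. The 3 shared ones lay in Hoxb2, Hoxd13 and Hoxd8. Regions of Hyp-Imm alone made up 25.0% (13.2 to 40.3) and shared ones 6.82% (1.43 to 18.7), and the same shares over the genome were 32.9% and 8.43%. Both genome values lay within the intervals of the clusters. At the TSS, 3 members had a peak in Hyp-Imm and not in Norm-Sen (Hoxb7, Hoxb13 and Hoxc11) and 10 in Norm-Sen and not in Hyp-Imm (Hoxa3, Hoxa4, Hoxa10, Hoxa13, Hoxb3, Hoxc8, Hoxc10, Hoxc13, Hoxd1 and Hoxd10), while among all protein-coding genes 4.67% and 22.0% were of these kinds. Hyp-Imm had 25.2% of the background depth of Norm-Sen, the deepest library, and the part of depth in these counts was not tested. By the file names the immortalized library would have 25 cluster regions that the senescent one lacks, and the senescent library 11: the larger set is then that of the immortalized library.

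The other pairs share libraries with this one, and their values are given side by side. Between Norm-Sen and Norm-Pro, 6 members had a TSS peak in Norm-Sen alone (Hoxa3, Hoxa13, Hoxb3, Hoxc8, Hoxc10 and Hoxd10), 3 in Norm-Pro alone (Hoxa5, Hoxb4 and Hoxc4) and 8 in both, and 7.50% and 9.28% of all genes had one in Norm-Sen alone and in Norm-Pro alone. Between Hyp-Imm and Hyp-Pro, 3 had one in Hyp-Imm alone (Hoxb7, Hoxb13 and Hoxc11), 9 in Hyp-Pro alone and 4 in both, against 5.52% and 19.4% of all genes in Hyp-Imm alone and in Hyp-Pro alone. Between Hyp-Pro and Norm-Pro, 4 had one in Hyp-Pro alone (Hoxa13, Hoxb8, Hoxb9 and Hoxd4), 2 in Norm-Pro alone (Hoxa5 and Hoxa10) and 9 in both, against 6.23% and 11.5% of all genes in Hyp-Pro alone and in Norm-Pro alone. Norm-Sen and Norm-Pro shared 11 of the 50 cluster regions found in either (22.0%, 11.5 to 36.0), against 12.8% over the genome, and 6 of the 11 lay in HoxD. Hyp-Imm and Hyp-Pro shared 2 of 41 (4.88%, 0.596 to 16.5), against 9.36%, and Hyp-Pro and Norm-Pro shared 6 of 51 (11.8%, 4.44 to 23.9), against 12.6%. Each of these 3 intervals covers the value of the genome.

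Regions within 1 kb of a TSS were found in 1 library less commonly than the others, with no test of the difference. Of the 78 regions, 39 lay within 1 kb of a member's TSS, and 27 of these 39 were found in 1 library, against 33 of the 39 others. By annotation, 25 regions overlapped a coding exon, 15 another exon, 18 an intron and 20 lay between protein-coding genes. Found in 1 library were 19 of the 25 in coding exons (76.0%), 9 of the 15 in other exons (60.0%), 13 of the 18 in introns (72.2%) and 19 of the 20 between genes. The 8 regions found in 3 libraries comprised 6 in coding exons. In 200 bp around the centre, the median share of G and C was 71.5% for regions at coding exons and 61.2% for those between genes. It was 64.5% over all cluster regions, against 52.5% over the regions of the genome. Whether base composition bears on which regions were called was not tested.

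RefSeq promoters, from 250 bases before to 50 after a TSS on GRCm38.p6, were at hand for 22 of the 38 members, with 24 promoters. Of these, 7 overlapped an ATAC-seq peak and 4 did so in 2 or more libraries, a count not made for all promoters. These 4, chosen after the peaks were seen, are shown to place the peaks against the start of the gene, with every base under a peak of any library in capitals.
Hoxd13 promoter, chr2:74667975-74668274, plus strand: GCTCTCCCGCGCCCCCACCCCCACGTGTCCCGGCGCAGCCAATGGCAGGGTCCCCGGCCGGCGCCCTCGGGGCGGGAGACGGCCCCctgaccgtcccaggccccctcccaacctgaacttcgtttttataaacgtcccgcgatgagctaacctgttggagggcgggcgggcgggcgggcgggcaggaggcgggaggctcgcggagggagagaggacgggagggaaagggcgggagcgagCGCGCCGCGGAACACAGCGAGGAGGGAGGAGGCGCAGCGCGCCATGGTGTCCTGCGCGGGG
Hoxd9 promoter, chr2:74697513-74697812, plus strand: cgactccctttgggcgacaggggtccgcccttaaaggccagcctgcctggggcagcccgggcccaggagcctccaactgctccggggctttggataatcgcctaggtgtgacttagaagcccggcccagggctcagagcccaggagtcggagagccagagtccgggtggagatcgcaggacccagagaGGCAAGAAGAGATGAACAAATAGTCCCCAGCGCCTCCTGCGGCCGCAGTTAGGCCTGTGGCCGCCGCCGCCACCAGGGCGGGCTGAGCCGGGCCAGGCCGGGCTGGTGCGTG
Hoxd1 promoter, chr2:74762730-74763029, plus strand: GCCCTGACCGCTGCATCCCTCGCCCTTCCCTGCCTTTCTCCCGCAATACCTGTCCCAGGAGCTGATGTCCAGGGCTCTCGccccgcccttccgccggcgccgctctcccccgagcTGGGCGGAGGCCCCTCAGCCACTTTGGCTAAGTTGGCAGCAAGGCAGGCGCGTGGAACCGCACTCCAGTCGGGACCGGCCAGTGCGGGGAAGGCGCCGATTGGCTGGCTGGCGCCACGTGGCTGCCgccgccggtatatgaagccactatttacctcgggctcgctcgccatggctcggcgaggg
Hoxa13 promoter, chr6:52260831-52261130, minus strand: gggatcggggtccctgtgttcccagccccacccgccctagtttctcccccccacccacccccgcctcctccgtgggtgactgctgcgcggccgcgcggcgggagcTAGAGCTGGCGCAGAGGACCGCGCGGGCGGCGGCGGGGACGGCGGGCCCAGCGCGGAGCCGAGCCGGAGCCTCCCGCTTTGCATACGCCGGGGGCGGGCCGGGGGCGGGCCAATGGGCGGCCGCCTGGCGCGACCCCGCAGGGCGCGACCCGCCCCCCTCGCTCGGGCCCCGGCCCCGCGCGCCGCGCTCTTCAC
In the Hoxd13 promoter, 142 bases lay under peaks of Norm-Sen, 86 under Hyp-Pro and 12 under Norm-Pro. The peaks at its far 5′ end lie upstream of the cluster as delimited here. At Hoxd9, 88 bases lay under Norm-Sen and 112 under Norm-Pro, all at the 3′ end of the promoter. At Hoxd1, 126 bases lay under Norm-Sen and 80 under Hyp-Pro, in separate blocks, and at Hoxa13, 171 lay under Norm-Sen and 195 under Hyp-Pro. None of the 4 promoters had a base under a peak of Hyp-Imm, the library with the fewest peaks and the lowest depth.

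The Hox promoters at hand had median compositions close to those of all genes. They take in all listed genes of HoxD but only Hoxc4 of HoxC and Hoxb1, Hoxb4 and Hoxb8 of HoxB. Their median content of G and C was 57.7%, against 57.0% over 20150 promoters of protein-coding genes, and their median ratio of observed to expected CpG was 0.626, against 0.588. Motifs were searched on both strands, and none of them contains another. The CCAAT box, a common promoter element, was found in 15 of 24 promoters (62.5%), against 37.8% of all, among them those of Hoxd13, Hoxd1 and Hoxa13 shown above. The Hox and Pbx motif TGATTNAT was found in 2 (Hoxa2 and Hoxd11), which is 8.33%, against 2.65% of all, and the posterior Hox and Cdx motif TTTATNG in 2 (Hoxb8 and Hoxd4), against 9.43%. No promoter held the CTCF core or the DR5 element of retinoic acid receptors, which 2.39% and 0.789% of all promoters held. A match is a description of the letters and no evidence of a bound factor.

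CTCF borders are a known feature of Hox clusters, so the core of the CTCF motif (CCA, any 2 bases, AG, any 2 bases, GGC) was searched in the regions. In 200 bp around the centre, 5 of 78 cluster regions held it (6.41%), against 2.39% of 170295 regions of the autosomes and the X chromosome. The cluster regions were richer in G and C (median 64.5%, against 52.5%), which was not matched. The difference in the share with the core was not tested. Within the regions themselves 4 matches lay, each shown with 15 bases on either side and the core in capitals.
Hoxd3 and Hoxd4 intron, chr2:74715906-74715947, plus strand: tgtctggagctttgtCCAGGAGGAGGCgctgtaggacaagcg
Hoxa10 first exon, chr6:52240526-52240567, minus strand: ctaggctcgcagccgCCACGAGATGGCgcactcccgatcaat
upstream of Hoxd12, chr2:74673163-74673204, minus strand: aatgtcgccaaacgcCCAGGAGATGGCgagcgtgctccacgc
upstream of Hoxb4, chr11:96315113-96315154, plus strand: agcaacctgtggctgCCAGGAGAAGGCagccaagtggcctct
The first lies in the strongest HoxD region, that of the Hoxd3 and Hoxd4 intron, which had peaks in Norm-Sen, Hyp-Pro and Norm-Pro. The second lies in the region of the first exon of Hoxa10, with peaks in Norm-Sen and Norm-Pro. The third, between Hoxd13 and Hoxd12, had a peak in Hyp-Pro alone (−log10 q 3.14), and the fourth, between Hoxb5 and Hoxb4, in Norm-Sen alone (4.70). None of these 4 regions had a peak in Hyp-Imm, which had 14 peaks over all the clusters, the fewest, and the lowest depth. Of the other motifs, the CCAAT box was in 17 regions (21.8%, against 22.8% of the genome's) and the posterior Hox and Cdx motif in 3 (3.85%, against 4.63%), while the Hox and Pbx motif, the DR5 element and the Tfcp2l1 consensus with at most 2 mismatches were in none.

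Tfcp2l1, a transcription factor of pluripotent cells that the study followed in immortalized MEFs, had a single peak over the clusters. In ChIP Hyp-Imm 1 of 38 members, Hoxb2, had a peak in the gene or 5 kb of it (2.63%, 0.0666 to 13.8), against 1.59% of all protein-coding genes. In ChIP Norm-Sen none had one (0 to 9.25%), against 1.01%. The peak lay in a coding exon of Hoxb2, a gene of the hindbrain, 1610 bp from its TSS, with a fold enrichment of 5.70 and a −log10 q of 3.56. It was a weak peak, since 519 of the 612 peaks of its library had a higher −log10 q. Its sequence is given on the strand of the gene, with the stretch closest to the Tfcp2l1 consensus in capitals.
Hoxb2 peak, chr11:96353241-96353446, plus strand: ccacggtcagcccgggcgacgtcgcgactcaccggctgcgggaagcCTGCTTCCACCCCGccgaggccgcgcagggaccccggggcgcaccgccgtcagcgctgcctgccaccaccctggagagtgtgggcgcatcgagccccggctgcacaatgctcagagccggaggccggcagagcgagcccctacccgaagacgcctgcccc
That stretch has 4 mismatches to the consensus, more than the 2 allowed in the search. The same place was open in Hyp-Imm (−log10 q 2.51), Norm-Sen (3.36) and Norm-Pro (2.59) and had no ATAC-seq peak in Hyp-Pro. The nearest ChIP Hyp-Imm peak to HoxA lay 130020 bp away, and those to HoxC and HoxD 3700958 and 1346823 bp away. The ChIP Norm-Sen peaks nearest to HoxB and HoxC lay 334956 and 334675 bp away.

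Among TALE cofactors and chromatin regulators of Hox genes, a larger share than among the Hox genes had a TSS peak in each library, with no test of the difference. Over all protein-coding genes the shares were 34.0%, 51.4%, 48.0% and 53.2% in Hyp-Imm, Norm-Sen, Hyp-Pro and Norm-Pro, above those of the Hox genes. Of 8 genes of the TALE family, whose proteins bind DNA together with Hox proteins, 7, 6, 6 and 7 had a TSS peak in Hyp-Imm, Norm-Sen, Hyp-Pro and Norm-Pro, and Pbx3, Pbx4, Pknox1 and Pknox2 had one in all 4. At Pbx3 the −log10 q was 7.38, 7.76, 6.73 and 7.32, and at Pknox1 14.5, 12.1, 21.0 and 21.3. Meis1 had none in Hyp-Imm and Hyp-Pro, with 7.93 in Norm-Sen and 4.35 in Norm-Pro. Of 9 chromatin regulators of Hox genes, 8, 7, 8 and 6 had a TSS peak, and Kmt2a, Eed, Ezh2, Suz12, Rnf2 and Ctcf had one in all 4. Kmt2a, an activator of Hox genes, was also the only one of the cofactor and regulator genes with Tfcp2l1 peaks in the gene or 5 kb of it, 2 in ChIP Hyp-Imm and 1 in ChIP Norm-Sen. Of 6 ParaHox and Cdx genes, 0, 1, 0 and 3 had a TSS peak, at Gsx1 in Norm-Sen and at Gsx1, Gsx2 and Cdx2 in Norm-Pro. Evx1 and Evx2, which flank HoxA and HoxD, had none. Of 8 non-coding genes of the clusters, Hotair, Hottip and 5 microRNA genes had none, and Hotairm1 had one in Norm-Sen (5.05), Hyp-Pro (3.30) and Norm-Pro (7.19). Their TSS was the start of the annotated transcript, which for a microRNA gene need not be its promoter. The share over all non-coding genes was not counted.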

How the data were processed

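ATAC-seq was deposited for 4 libraries and Tfcp2l1 ChIP-seq for 2, each as a list of peaks. Per the labels and the methods of the study, the authors aligned reads with Bowtie or Bowtie2 to GRCm38/mm10, used SAMtools, removed ATAC-seq read pairs more than 2 kb apart, corrected for the Tn5 offset and called peaks with MACS2 at a false discovery rate of 0.05. The deposited values of a peak are its fold enrichment over the background of the authors' peak caller, and the −log10 of its p-value and q-value. The score column was not used. A sequence and a listed cofactor gene are not reported here. The input and the build of the ChIP-seq calls are not given in the sources used here. As a check of the build, 125 of 612 ChIP Hyp-Imm peaks (20.4%) and 165 of 393 ChIP Norm-Sen peaks (42.0%) lay on annotated tRNA genes of GRCm38, and 1 and 5 after a shift of 10 kb.

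The 38 genes and all lists were chosen with earlier results of these data known. A gene was counted when a peak overlapped it, or 5 kb on either side, or 1 kb around an annotated TSS, by 1 bp or more. The same counts over all 21938 protein-coding genes stand beside them. Overlapping or touching peaks of the 4 ATAC-seq lists formed regions. Every member with a TSS peak, those with no peak, and the strongest region of each cluster are named. The 95% intervals of shares are exact (Clopper-Pearson), hold counting error only and take members as independent, although neighbours share peaks. The read totals are not known. The background in reads per position came from the spacing of the fold values, at whole steps of which 25.0% (Hyp-Imm), 22.5% (Norm-Sen), 19.6% (Hyp-Pro) and 30.9% (Norm-Pro) of peaks lay within a tolerance of 0.001. Sequences came from GRCm38 and, for promoters, from RefSeq (GRCm38.p6). The counting was tested on simulated data. Python 3.11.15, numpy 2.4.6, scipy 1.17.1, matplotlib 3.10.9, samtools 1.23.1 and seqtk 1.5-r133 were used. Alternatives were other windows, a −log10 q of at least 5, equal numbers of peaks, an overlap of 50%, merging at 100 bp, wider cluster borders and conditions by the file names. RefSeq gene spans were added after the data were seen.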

Additional observations from a re-analysis of the deposited data

How the results depend on the processing

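No paired analysis was possible because each condition has 1 library and no test was made. With peaks of a −log10 q of at least 5 alone, members with a TSS peak were 1 (Hyp-Imm), 5 (Norm-Sen), 4 (Hyp-Pro) and 2 (Norm-Pro), against 11.3%, 31.6%, 29.3% and 34.6% of all protein-coding genes, members with a peak in the gene or 5 kb of it 1, 12, 11 and 6, against 16.2%, 41.5%, 39.0% and 44.6%, and cluster peaks per 100 kb 0.206, 1.65, 1.44 and 0.619. No member then had a Tfcp2l1 peak (0 of 38), 1 cluster region was in Hyp-Imm without Norm-Sen and 8 were the other way round, and rho of paralog group and number of libraries was −0.64 in HoxA, −0.06 in HoxC and −0.31 in HoxD, with no value in HoxB. With equal numbers of peaks, the density was 4.54 per 100 kb in Norm-Sen and 3.71 in Norm-Pro, and rho was −0.64 in HoxA, 0.27 in HoxB and −0.42 in HoxD. With 250 bp around a TSS, 4 members had a peak in Hyp-Imm and 6 in Hyp-Pro, against 29.3% and 42.9% of all genes, and with 2 kb 11 had one in Hyp-Imm, against 36.4%. With the gene span alone, 11 had one in Hyp-Imm and 19 in Norm-Sen, against 45.0% and 61.3%, and rho was −0.16 in HoxA, −0.07 in HoxB, −0.44 in HoxC and −0.26 in HoxD. With 1 kb on either side, rho was −0.13 in HoxA, −0.02 in HoxB, −0.39 in HoxC and −0.28 in HoxD, and at the TSS it was 0.05, 0.42, 0.20 and −0.28 in HoxA, HoxB, HoxC and HoxD. With 50 kb on either side, 5 members had a Tfcp2l1 peak in ChIP Hyp-Imm. These were Hoxb1 to Hoxb5, which all lie within 50 kb of the single peak in Hoxb2. The share of all genes was not counted at this window. By the file names, members with a TSS peak were 11 for Hyp-Imm and 7 for Norm-Sen, against 53.2% and 34.0% of all protein-coding genes. In Norm-Sen 19 then had a peak in the gene or 5 kb of it, against 56.3%. The density was 5.77 per 100 kb for Hyp-Imm and 2.89 for Norm-Sen, and 25 cluster regions were in Hyp-Imm without Norm-Sen and 11 the other way round. The cause of these shifts was not tested. Merging at 100 bp gave 2 of 74 regions (2.70%) in all 4 libraries, against 0 of 78. Otherwise an overlap of 50%, wider cluster borders, merging at 100 bp and RefSeq gene spans, the last chosen after seeing the data, moved no count by over 1.5 times, and RefSeq spans no rho by over 0.1. What depth limits is the absence of a peak, above all in Hyp-Imm: a gene without one is not shown to be closed.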
